A study of Drosophila melanogaster with 3 samples.

Results

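The peaks described here were those that Su(var)3-7-GFP formed where protein-coding genes start on their own, without a divergently transcribed protein-coding neighbour. A peak was counted when a protein-coding start site lay no further than 500 bp from its summit and none of the start sites within that distance belonged to a head-to-head pair. A head-to-head pair was a minus-strand start site 0 to 1000 bp left of a plus-strand start site of another protein-coding gene. Of the 4055 peaks that passed the authors' reproducibility threshold, 1222 (30.1%) met this rule. They made up 58.5% of the 2089 start-site peaks, the other 867 being peaks at divergent pairs, while 1966 peaks lay away from start sites. In 1182 of the 1222 the window held a start site of 1 gene, and in 40 it held start sites of 2 genes. The same rule with the start sites of the RefSeq annotation also gave 1222 peaks.

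The data were chromatin immunoprecipitation followed by sequencing (ChIP-seq) of whole Drosophila melanogaster embryos in 1 group of 3 biological replicates. The embryos came from a transgenic line with green fluorescent protein (GFP) at the carboxyl end of Su(var)3-7, were 0 to 24 h old and of both sexes, and their chromatin was sonicated and precipitated with an antibody against GFP. All cell types and stages of embryogenesis were therefore mixed in each sample, and the promoter that drove the transgene and the state of the untagged gene are not given in the labels. The files were lists of 30000 relaxed regions per replicate and for the pooled replicates, plus the thresholded list. The authors name the relaxed lists peaks and background, so a region called weaker here need not be a binding site. No read counts came with them, so how deeply each replicate was sequenced is unknown. No untagged or mock precipitation was analysed here. The start sites, gene lists and motifs were all set against the same peaks, and neighbouring regions are not independent of each other.

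Su(var)3-7 is a zinc-finger protein known from heterochromatin, where it partners with the heterochromatin protein HP1, and its gene was found through its dose effect on position-effect variegation. Fly promoters fall broadly into those of constantly used genes, which often carry the elements DRE, motif 1, motif 6 and motif 7 and often stand head to head, and those of regulated genes, which more often carry a TATA box, an initiator or GAGA factor sites. At a single gene the position and sequence of a peak can be read in 1 direction of transcription. The gene of Su(var)3-7 itself was not among them: its start site belonged to a head-to-head pair, and its peak had a signal of 222, standing at 4.51, 3.69 and 2.67 times the list median in replicates 1, 2 and 3.

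The sequences at the summits of 5 of the strongest single-gene peaks are shown first, since they are among the sites with the most signal. Each runs 5′ to 3′ in the direction of its gene, covers at most 100 bp on either side of the summit, omits annotated exon bases, and comes from the RefSeq genome on build dm6. Capitals mark the letters CACTG read on either strand, a short sequence that was picked after its counts had been seen and that is taken up again after the motifs. None of the 5 stretches held any of the 7 motifs found more often at summits than beside them.
CG14100 (chr3L:19590525-19590704, minus strand): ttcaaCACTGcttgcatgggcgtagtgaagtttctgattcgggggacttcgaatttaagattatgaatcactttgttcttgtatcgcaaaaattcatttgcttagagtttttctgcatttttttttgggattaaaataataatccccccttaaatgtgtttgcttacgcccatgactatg
ph-p (chrX:2137238-2137438, minus strand): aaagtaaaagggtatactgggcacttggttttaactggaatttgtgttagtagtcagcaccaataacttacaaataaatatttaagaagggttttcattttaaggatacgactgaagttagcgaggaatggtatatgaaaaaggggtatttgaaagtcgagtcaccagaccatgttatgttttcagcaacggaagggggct
larp (chr3R:28326501-28326701, minus strand): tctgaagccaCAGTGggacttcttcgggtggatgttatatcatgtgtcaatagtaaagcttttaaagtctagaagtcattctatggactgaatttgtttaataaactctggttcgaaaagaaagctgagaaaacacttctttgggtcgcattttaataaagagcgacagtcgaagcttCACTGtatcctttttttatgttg
CG31145 (chr3R:23669753-23669953, minus strand): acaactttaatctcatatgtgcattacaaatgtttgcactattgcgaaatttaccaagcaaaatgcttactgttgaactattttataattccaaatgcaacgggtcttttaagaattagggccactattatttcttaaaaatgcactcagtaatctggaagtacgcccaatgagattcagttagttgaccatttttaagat
CG13921 (chr3L:1746661-1746861, plus strand): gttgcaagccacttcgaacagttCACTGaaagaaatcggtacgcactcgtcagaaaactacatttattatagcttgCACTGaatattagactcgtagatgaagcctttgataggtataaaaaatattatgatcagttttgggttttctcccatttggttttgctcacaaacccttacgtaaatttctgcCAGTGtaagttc

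The genes of these 5 peaks were of unlike kinds. ph-p encodes a Polycomb group protein of the repressive complex PRC1, and larp an RNA-binding protein of the La family. The remaining 3 carry only CG numbers, for which no function is given here. The next set shows, for each of the 7 motifs, a strong single-gene peak with a match outside annotated exons, and capitals mark that motif alone.
DRE at CG11151 (chrX:13739438-13739497, plus strand): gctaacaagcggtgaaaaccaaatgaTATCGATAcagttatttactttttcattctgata
motif 1 core at Rnp4F (chrX:5322699-5322758, minus strand): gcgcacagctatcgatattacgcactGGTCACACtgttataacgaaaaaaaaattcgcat
motif 7 core at jigr1 (chr3R:25646940-25646999, plus strand): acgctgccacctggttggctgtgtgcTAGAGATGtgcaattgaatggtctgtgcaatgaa
GAGA factor repeat at CG9743 (chr3R:30203460-30203518, minus strand): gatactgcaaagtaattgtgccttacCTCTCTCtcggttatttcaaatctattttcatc
A-flanked E-box at CG31612 (chr2L:21795040-21795099, minus strand): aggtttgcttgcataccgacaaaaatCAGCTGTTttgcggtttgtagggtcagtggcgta
second core of motif 1 at Dph4 (chr3R:5623228-5623287, minus strand): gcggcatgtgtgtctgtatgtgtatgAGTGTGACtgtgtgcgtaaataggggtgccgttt
motif 6 core at Hpf1 (chr3R:5791775-5791833, plus strand): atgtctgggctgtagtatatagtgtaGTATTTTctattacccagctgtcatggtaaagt

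The letters searched, on both strands, were TATCGATA for DRE (bound by DREF and BEAF-32), GGTCACAC for the motif 1 core (bound by M1BP), GTCACACT for the second core of motif 1, CATCNCTA for the motif 7 core, GTATTTT for the motif 6 core, GAGAGAG for the GAGA factor repeat and AACAGCTG for the E-box with an A flank. The motif 1 core and its second core overlap, and 43 peaks held both. The A-flanked E-box contains the plain E-box.

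The strongest single-gene peaks stood far above the rest in all 3 replicates. Values per replicate are given as the signal of that replicate's strongest region within 200 bp of the summit, divided by the median signal of its list, because the scale of the authors' signal is not stated. The pooled signal of the 1222 peaks ran from 119 to 2957, with quartiles of 144, 182 and 288. The strongest peak, at CG14100 (chr3L:19590393-19590827), reached 40.6, 53.1 and 46.7 times the list median in replicates 1, 2 and 3. The peak at px, a wing vein patterning gene (chr2R:22514064-22514522), reached 40.1, 46.4 and 39.6 times. That at ph-p (chrX:2137158-2137590) reached 29.7, 38.2 and 31.0 times. In each replicate CG14100 was above px, and px above every other single-gene peak. The peak at ph-p was above that of CG1888 in replicates 1 and 2 and below it in replicate 3.

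The next peaks in order of signal belonged to CG1888, larp, Sox14, CG31145, CG13921, gish and Atf3. At larp (chr3R:28326395-28326799) the values were 23.2, 31.6 and 25.7 times the list median. Sox14 encodes a Sox transcription factor induced by ecdysone, and its peak (chr2R:23978365-23978763) stood at 19.9, 32.8 and 25.8 times. The peak at gish (chr3R:16280509-16280949), the gene of a casein kinase I, stood at 21.1, 27.9 and 19.7 times. At Atf3 (chrX:1275260-1275730), the gene of a bZIP transcription factor, the values were 20.3, 24.6 and 24.1 times. The peak at larp was above those at CG13921 and gish in each replicate, while larp and Sox14 changed places between replicates. No order among these 7 peaks was tested.

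The other 15 of the 25 strongest peaks were at GstE13 (a glutathione S-transferase), MFS10 (a major facilitator transporter), Rtnl1 (a reticulon of the endoplasmic reticulum), CG18549, amon (a prohormone convertase), eIF6 (a translation factor that keeps ribosomal subunits apart), CG17896, CG9743, Sesn (a sestrin), jet (an F-box protein of the circadian light response), dnc (a cAMP phosphodiesterase), Hpf1 (a cofactor of PARP), nebu, CG31431 and cbt (a zinc-finger transcription factor). All 25 lay between 12.4 and 53.1 times the list median in every replicate. Replicate 2 was the highest for 22 of the 25 and replicate 1 the lowest for 19, a shift that the division by the list median did not remove.

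**Figure D1:**
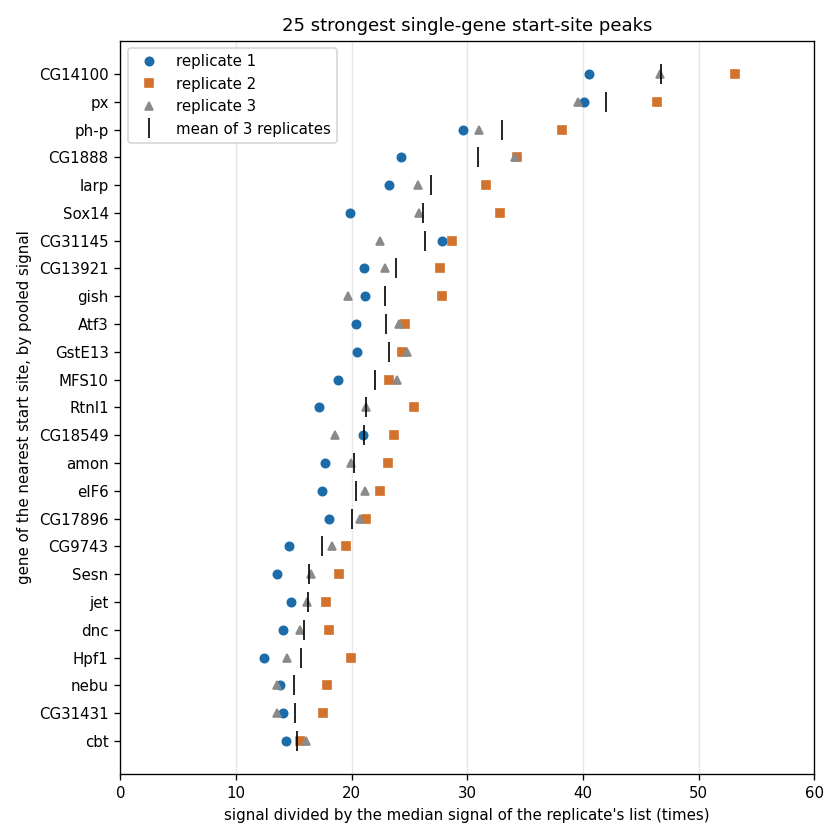
Signal of the 25 strongest single-gene start-site peaks in each of 3 replicates (horizontal axis, times the median of that replicate's list; black bars, mean), with the gene of the nearest start site on the vertical axis. CG14100, px and ph-p lie to the right, and orange squares (replicate 2) are the highest value for 22 of the 25.

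The median single-gene peak was slightly weaker than the median divergent-pair peak in each replicate. The median single-gene peak stood at 2.98, 3.28 and 2.89 times the list median in replicates 1, 2 and 3 (3.05 ± 0.207, SD, n = 3), and the median divergent-pair peak at 3.10, 3.31 and 2.97 times (3.13 ± 0.175). The difference was below 0 in each replicate, by -0.124, -0.0320 and -0.0805, with a mean of -0.0789 ± 0.0462. An exact two-sided sign-flip permutation test over the replicates gave p = 0.25, the smallest that 3 replicates allow. Among the stronger 2027 thresholded peaks the mean difference changed sign, to 0.233 (exact p = 0.5). Against the peaks away from start sites the single-gene peaks were higher in replicates 1 and 3 (0.203 and 0.210 times the list median) and lower in replicate 2 (-0.0222), with an exact p of 0.5. Among the 100 strongest thresholded peaks 36 were single-gene peaks, and among the 500 strongest 186 (37.2%), where 30.1% of all thresholded peaks were. These counts were not tested.

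The 3 replicates recovered most single-gene peaks. The thresholded list was derived from these same replicates, so high recovery was built in and is no independent check of the peaks. In replicates 1, 2 and 3, 82.3%, 86.2% and 80.4% of the 1222 were among the strongest 4055 regions (83.0% ± 2.92, SD, n = 3), against 84.4% ± 1.47 of the divergent-pair peaks. All 3 replicates held 757 of the 1222 (61.9%, 95% Wilson interval 59.2 to 64.6), 2 held 316, 1 held 139 and none held 10. The share in all 3 was 64.1% for divergent-pair peaks (log2 odds ratio -0.14, with a 95% interval of -0.40 to 0.13, and p = 0.312 by Fisher's exact test, two-sided). With a start-site window of 200 bp the difference passed (log2 odds ratio -0.42, exact p = 0.00569), as it did with a pair distance of 500 bp (-0.33, exact p = 0.0201). These intervals cover the counting of regions and nothing else.

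Individual peaks moved by more than the median did. Between a peak's highest and lowest replicate the median ratio was 1.48 over the 1194 peaks found in all 3 lists, it exceeded 2 for 203 and 3 for 37 of them. Replicate 2 was the highest for 657 (55.0%). Ranked by signal, single-gene peaks had a Spearman correlation of 0.714 for replicates 1 and 2 (1208 peaks), 0.731 for 1 and 3 (1200 peaks) and 0.724 for 2 and 3 (1202 peaks), and peaks of 1 list share a library. For 16 of the 1222 a stronger thresholded summit lay within 200 bp, so that their replicate values could be those of the neighbour. This held for 0 of the 25 strongest, and without the 16 the median was 3.04 ± 0.202 times the list median.

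Summits lay upstream of the start site. Of the 1222, 951 (77.8%, Wilson interval 75.4 to 80.1) were upstream of the nearest start site in the direction of transcription. The median offset was -103 bp, where a negative offset is upstream, with quartiles of -223 and -11 bp. The 4305 weaker pooled regions met the same rule without overlapping a thresholded peak. They lay about equally on both sides of the start site, with 48.9% upstream and a median offset of 4 bp. The difference had a log2 odds ratio of 1.87, with a 95% interval of 1.66 to 2.09 (p = 7.32e-76 by Fisher's exact test, two-sided). Taken from each replicate's own list, single-gene regions among its strongest 4055 lay upstream in 75.2% ± 1.56 of cases, and its weaker single-gene regions in 49.4% ± 1.20 (SD, n = 3). The replicates placed the summits close to the pooled ones, at median distances of 14, 8 and 17 bp.

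**Figure D2:**
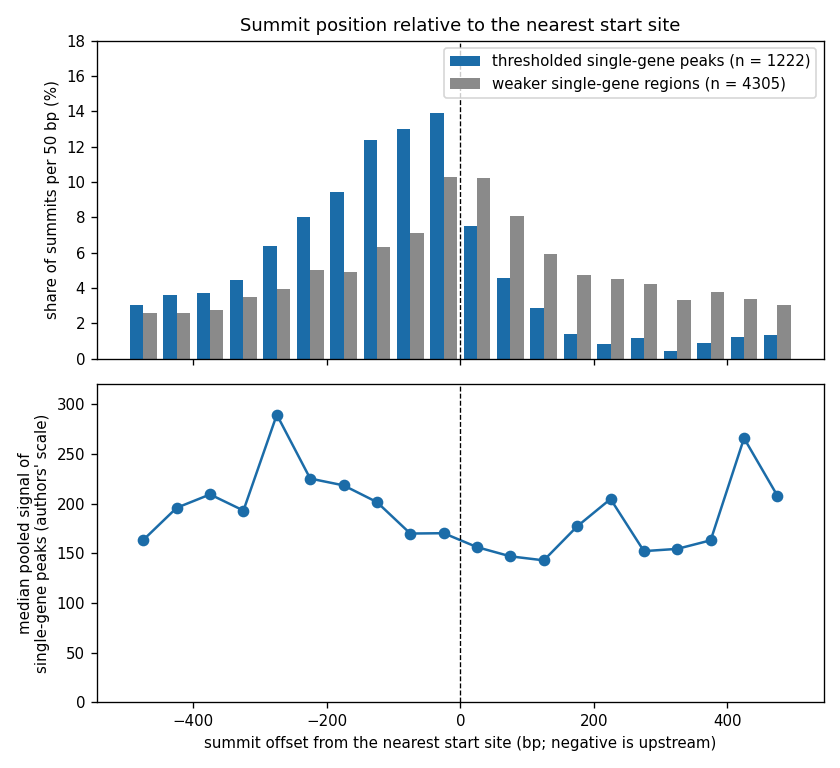
Top, share of summits per 50 bp by offset from the nearest start site for thresholded single-gene peaks (blue, n = 1222) and weaker single-gene regions (grey, n = 4305). Bottom, median pooled signal of the single-gene peaks in the same bins; the blue bars pile up upstream of 0 while the grey ones lie on both sides, and bins beyond 150 bp downstream hold 17 peaks or fewer.

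The strongest single-gene peaks lay further upstream than the others. The 100 strongest had a median offset of -200.5 bp, with 92% upstream and 12% within 100 bp of the start site. The other 1122 had a median of -91 bp, with 76.6% upstream and 41.4% within 100 bp. In the replicates' own lists the medians were -194.5 ± 4.50 bp for the strongest 100 and -86.8 ± 4.54 bp for the rest (SD, n = 3). The split into 100 and the rest was chosen after the values had been seen, so no test was made. Genes with 1 start site showed the same order (-184.5 bp for their 50 strongest peaks, -85 bp for the others), as did genes with several (-211 and -103 bp).

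By position, the 356 peaks 201 to 500 bp upstream had a median pooled signal of 217, or 3.64 ± 0.282 times the list median (SD, n = 3). The 595 peaks 1 to 200 bp upstream had 183, or 3.01 ± 0.181 times, and the 271 at or downstream of the start site 156, or 2.71 ± 0.255 times. All 3 replicates recovered 71.1% of the first, 62.2% of the second and 49.4% of the third set. Among the 25 strongest, 24 were upstream, from CG14100 (offset -80 bp) and Hpf1 (-101 bp) to ph-p (-483 bp) and CG17896 (-488 bp). The exception was GstE13, whose summit lay 67 bp downstream, with 20.4, 24.4 and 24.8 times the list median in replicates 1, 2 and 3.

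Signal did not break off at the edges of the rule. The 26 peaks 480 to 500 bp from a start site had a median signal of 183 (122 to 2079), and the 16 peaks 501 to 520 bp away, which were not counted, had 173 (128 to 486). The 23 peaks at genes whose facing partner lay 1001 to 1100 bp off had a median signal of 166, and the 22 divergent-pair peaks with partners 900 to 1000 bp apart had 159.

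The summits fell mostly outside exons. Of the 1222, 568 (46.5%) lay between protein-coding genes, against 26.6% of the weaker single-gene regions. Introns held 364 (29.8%) and 23.8%, untranslated exons 265 (21.7%) and 30.7%. Coding exons held 25 peaks (2.05%) but 18.9% of the weaker regions. No test was made of these classes or of the part of the offset in them.

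Single-gene peaks had a close upstream neighbour less often than all protein-coding genes outside head-to-head pairs, in counts that were not tested. The nearest upstream gene lay at a median of 1727 bp for the single-gene peaks and 1550 bp for the 8916 genes outside pairs. It lay within 250 bp for 10.4% of the peaks and 16.8% of the genes, and it pointed the same way for 63.0% and 69.2%. The start site lay inside another protein-coding gene for 11.5% of the peaks and 19.8% of the genes. A gene counts once here and can carry several peaks, so these shares are descriptions. For a peak the gap was taken from the start site nearest to its summit. At genes with several start sites that site can lie inside the gene, further from the upstream neighbour, and the part of this was not tested.

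Of the 8916 protein-coding genes with no start site in a head-to-head pair, 983 (11.0%) carried at least 1 single-gene peak, and in the replicates' own lists 10.9% ± 0.306 (SD, n = 3) did. Genes with more start sites were bound more often. The share was 7.26% of 6814 genes with 1 start site, 18.0% of 1436 with 2, 29.0% of 390 with 3 and 42.4% of 276 with 4 or more. The replicates gave 7.04% ± 0.132, 17.9% ± 1.20, 29.8% ± 1.07 and 43.6% ± 2.00. Each start site adds a window that can hold a summit, and the part of this in the order was not tested.

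Within a gene the peak was not tied to the first start site. Of the 723 peaks at genes with several start sites, 306 (42.3%) were nearest to the 5′-most one. Where the start sites spanned 1000 bp or more, the share was 178 of 519 (34.3%), and drawing every start site of each gene equally often would give 32.7%. Among the strongest peaks, that of px was at the last of 3 start sites, that of larp at number 5 of 6, that of Rtnl1 at number 6 of 7 and that of dnc at number 6 of 9.

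Some genes carried peaks at several of their start sites; these genes were chosen after their values had been seen. Peaks were nearest to 2 or more start sites in 66 genes. Ptpmeg2, which encodes a protein tyrosine phosphatase, had 4 peaks at 4 of its 6 start sites, with pooled signals of 864, 795, 553 and 245. The strongest by pooled signal stood at 12.3, 15.4 and 13.1 times the list median in replicates 1, 2 and 3, and the weakest at 3.83, 5.04 and 2.63 times. Rtnl1 had 5 peaks at 4 of its 7 start sites, led by signals of 1361 and 767. Its strongest stood at 17.2, 25.4 and 21.2 times and the next at 11.7, 13.9 and 9.94 times.

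Among chromosome arms the share of genes with a single-gene peak was even, at 10.4% on 2L, 11.8% on 2R, 10.3% on 3L, 10.7% on 3R and 12.2% on X. On chromosome 4, the small and largely heterochromatic chromosome, 8 of 58 such genes (13.8%) carried one. The 9 single-gene peaks there had a median signal of 140. X held 19.0% of the single-gene peaks and 12.1% of the divergent-pair peaks, and 3R held 22.5% and 29.2%. Of the 8916 genes outside pairs, 1413 were on X and 2165 on 3R. How head-to-head pairs are spread over the arms was not counted, so these shares do not show a preference for an arm.

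Promoter elements were more frequent at the summits than 1 kb away. Of 19 motifs, 7 (36.8%) were more frequent within 100 bp of the summit than in an equal window 1 kb upstream (exact McNemar test, two-sided, p-values adjusted over the 19 by Benjamini-Hochberg), and 0 were less frequent (0 also before adjustment, with 8 more frequent). DRE was found at 5.97% of summits, against 0.900% of the upstream windows (adjusted p = 4.27e-11, exact test). The motif 1 core was found at 4.34% of summits, against 0.736% upstream (adjusted p = 4.99e-08, exact test), and its second core at 4.42% against 0.573%. The motif 7 core was at 5.40% of summits and 1.23% upstream (adjusted p = 1.91e-08, exact test). The A-flanked E-box was at 4.91% and 1.80%, the motif 6 core at 11.2% and 6.63%, and the GAGA factor repeat at 7.53% and 3.44% (adjusted p = 3.14e-05, exact test). Since the rule places every summit within 500 bp of a start site, a window 1 kb away differs from it in distance to a start site as well, and this contrast alone does not separate the peaks from promoters in general. Of 12210 start-site windows of single genes, centred 100 bp upstream and including those with a peak, 3.99% held DRE, 1.86% the motif 1 core, 1.77% its second core, 2.19% the motif 7 core, 3.30% the A-flanked E-box, 10.3% the motif 6 core and 7.42% the GAGA factor repeat.

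The same 7 motifs were also more frequent at start sites with a peak than at start sites without one, in a comparison added after other results had been seen. Windows of 100 bp on either side of a point 100 bp upstream were read at the 1167 start sites nearest to a single-gene peak and at 10951 start sites of single genes with no thresholded summit within 500 bp. Of the 19 motifs, 12 (63.2%) differed by Fisher's exact test (two-sided, adjusted over the 19), 9 higher and 3 lower. The GAGA factor repeat was at 14.9% of the start sites with a peak and 6.79% of those without (log2 odds ratio 1.27, interval 1.01 to 1.52; adjusted p = 3.61e-18, exact test), and the replicates' own lists gave 14.9%, 14.8% and 14.8%. That share is above the 7.53% at the summits themselves. DRE was at 6.60% and 3.62% (log2 odds ratio 0.91, adjusted p = 9.08e-06, exact test), with 6.63%, 5.91% and 7.27% in the replicates.

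The motif 1 core was at 3.68% of the start sites with a peak and 1.62% of those without, the motif 7 core at 4.28% and 1.95%, and the motif 6 core at 14.7% and 9.73%. The core of the CTCF motif (AGGTGGCGC), the element of an insulator protein, was at 0.771% and 0.146% (9 and 16 start sites; adjusted p = 7.16e-04, exact test). The lower ones were TATAAAA (13.6% and 17.3%, adjusted p = 0.00204, exact test), the initiator letters TCAGTT anywhere in the window (12.9% and 16.6%, adjusted p = 0.00185, exact test) and CAGGTAG, the element of the early activator Zelda (0.600% and 1.49%). The Zelda call was lost when any 1 replicate was left out (adjusted p from 0.0524 to 0.137, exact test), while its log2 odds ratio, -1.32 with all replicates, stayed below 0 in each case. Start sites of 1 gene can share a window, and the test treats them as independent.

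At least 1 of the 7 motifs was present at 415 summits (34.0%) and none of them at 807 (66.0%). Among the stronger 2027 thresholded peaks only DRE, GAGA and the second core of motif 1 still passed, with the motif 1 core (adjusted p = 0.152), motif 7 core (0.0766), A-flanked E-box (0.112) and motif 6 core (0.127) falling short by the exact McNemar test. Peaks with a motif 1 core had a lower median signal than peaks without one, by differences of -0.441, -0.533 and -0.408 times the list median in replicates 1, 2 and 3 (mean -0.461 ± 0.0650, SD). The difference was -0.402 ± 0.125 for the motif 7 core, -0.405 ± 0.0666 for the A-flanked E-box, -0.359 ± 0.0584 for the second core of motif 1 and -0.244 ± 0.114 for DRE. For the GAGA repeat it was 0.0127 ± 0.0266, and it was above 0 in 2 of the 3 replicates. Summits with DRE or a motif 1, motif 7 or A-flanked E-box match lay closer to the start site, at median offsets of -44.5 to -55 bp, than those with a GAGA repeat at -127 bp.

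Single-gene and divergent-pair peaks carried different elements. Divergent start sites without a peak were not counted, so this contrast cannot separate the peaks from the kinds of promoter they lie at. Of the 19 motifs, 8 (42.1%) differed between them (Fisher's exact test, two-sided, adjusted over the 19 in the same way). The GAGA factor repeat was at 7.53% of single-gene and 1.85% of divergent-pair summits (log2 odds ratio 2.11, 95% interval 1.34 to 2.89; adjusted p = 2.44e-08, exact test). The replicates gave 7.91% ± 0.504 and 1.66% ± 0.282 (SD, n = 3), and their values did not overlap. DRE went the other way, at 5.97% of single-gene and 13.4% of divergent-pair summits (log2 odds ratio -1.28, interval -1.72 to -0.84; adjusted p = 1.02e-07, exact test), with 5.33% ± 0.261 and 12.3% ± 0.236 in the replicates. The motif 7 core was at 5.40% and 11.3% (log2 odds ratio -1.16, adjusted p = 8.36e-06, exact test), the A-flanked E-box at 4.91% and 8.77% and the plain E-box (CAGCTG) at 12.4% and 17.6%.

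The motif 1 core (4.34% and 7.38%), the TATA sequence TATAAAA (10.8% and 15.0%) and the CA repeat CACACACA (4.83% and 2.77%) also passed, with adjusted p = 0.0115, 0.0131 and 0.0407 by the exact test. All 3 calls were lost when any 1 replicate was left out, with adjusted p from 0.0921 to 0.413 by the same test on the fewer peaks recovered in the other 2. The differences kept their direction there: the log2 odds ratio was -0.50 to -0.44 for TATAAAA (-0.54 with all replicates), 0.81 to 0.91 for the CA repeat (0.83) and -0.81 to -0.50 for the motif 1 core (-0.81). The count of TATAAAA takes either strand and any place in the window, and a TATA box at its usual place before the start site is given separately. A divergent pair places start sites of both genes near the summit, and the part of this in the motif shares was not tested. The mean GC content of the windows was 40.4% for single-gene peaks and 38.9% for divergent-pair peaks.

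**Figure D3:**
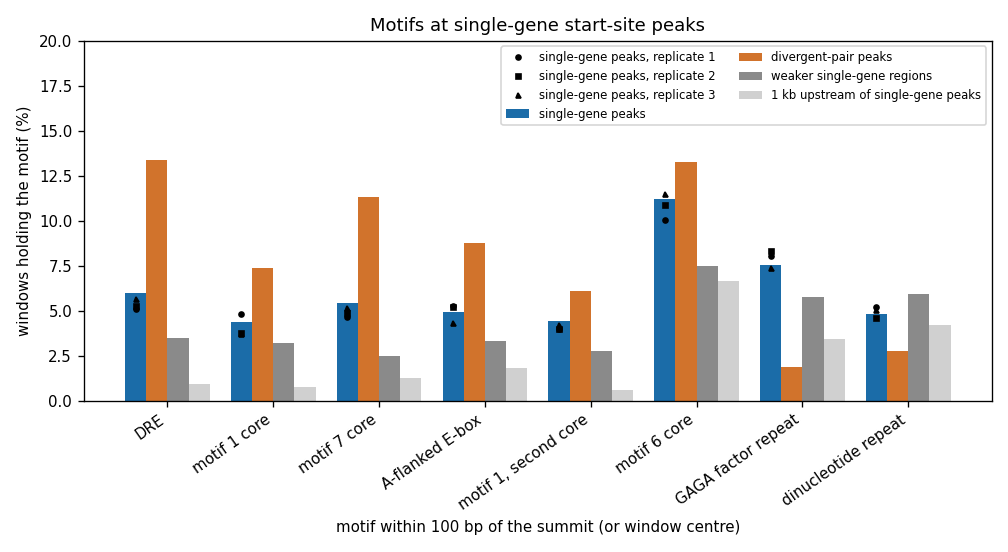
Share of windows (vertical axis, %) that hold each of 8 motifs (horizontal axis) at single-gene peaks, divergent-pair peaks, weaker single-gene regions and windows 1 kb upstream of the single-gene peaks; black marks give the single-gene share in each replicate's own list. The DRE bar is at 5.97% for single-gene and 13.4% for divergent-pair peaks, and the GAGA factor repeat at 7.53% and 1.85%.

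Against the weaker single-gene regions 6 of the 19 motifs (31.6%) were more frequent at the single-gene peaks and 0 less frequent (9 and 0 before adjustment; two-sided Fisher's exact test). They were the motif 7 core (5.40% and 2.49%, log2 odds ratio 1.16, adjusted p = 2.74e-05, exact test), DRE (5.97% and 3.48%, 0.82, adjusted p = 0.00122, exact test), the motif 6 core (11.2% and 7.46%, 0.65, adjusted p = 4.49e-04, exact test), TATAAAA (10.8% and 8.04%, 0.47), the A-flanked E-box and the second core of motif 1. The last pair was lost without any 1 replicate (adjusted p from 0.0724 to 0.135, exact test). In windows of 50 bp on either side the motif 7 core alone passed as more frequent, and the CA repeat passed as less frequent. The weaker windows were richer in GC, at 45.7% on average against 40.4%, and the part of base composition in these shares was not tested.

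At the start site itself, single genes with a peak less often had a TATA box than those without one. TATAAA on the gene's strand, between offsets of -40 and -20 bp, was present at 33 of 1167 start sites nearest to a single-gene peak (2.83%), against 8.82% of 7979 start sites of single genes that were nearest to neither a peak nor a weaker region (log2 odds ratio -1.73, with a 95% interval of -2.25 to -1.22, and adjusted p = 3.17e-14 over 12 exact tests). Start sites nearest to a weaker region only had it in 5.09% of cases (log2 odds ratio -0.88, adjusted p = 0.00211, exact test). At the start sites of divergent-pair peaks it was at 1.40%, the opposite order to that of TATAAAA anywhere in the summit windows, but the difference did not pass (log2 odds ratio 1.04, interval 0.08 to 2.00; adjusted p = 0.0654, exact test). The initiator TCAGT within 10 bp of the start site was present at 17.0% of the start sites of single-gene peaks and 5.47% of those of divergent-pair peaks (log2 odds ratio 1.82, adjusted p = 4.77e-15, exact test), but at 18.9% of those with a weaker region only (adjusted p = 0.228, exact test) and 14.6% of those with neither (adjusted p = 0.0661, exact test). DRE in the 100 bp before the start site was at 5.66% of the start sites of single-gene peaks, 11.9% of those of divergent-pair peaks, 5.23% of those with a weaker region only and 1.96% of those with neither. Placed this way, DRE did not pass between single-gene peaks and weaker regions (log2 odds ratio 0.12, interval -0.30 to 0.53; adjusted p = 0.72, exact test), unlike DRE around the summits. These 12 tests were added after other results had been seen, and 5 of them passed.

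A short sequence, CACTG on either strand, was commoner at the summits than around them. It was picked after counting all sequences of 8 bases, so its counts are a description. It was present within 100 bp of 588 of the 1222 summits (48.1%), against 30.0% of the windows 1 kb upstream, 32.2% of those 1 kb downstream and 31.4% of the start-site windows of single genes. In the replicates' own lists the share was 45.0%, 48.4% and 49.0%. Divergent-pair peaks (46.5%) and peaks away from start sites (53.5%) held it too, and weaker single-gene regions in 40.3% of cases. Matches were densest at the summit, at 17.9 per 100 peaks in the 50 bp just downstream of it, and 8.18 per 100 peaks between 400 and 350 bp upstream.

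**Figure D4:**
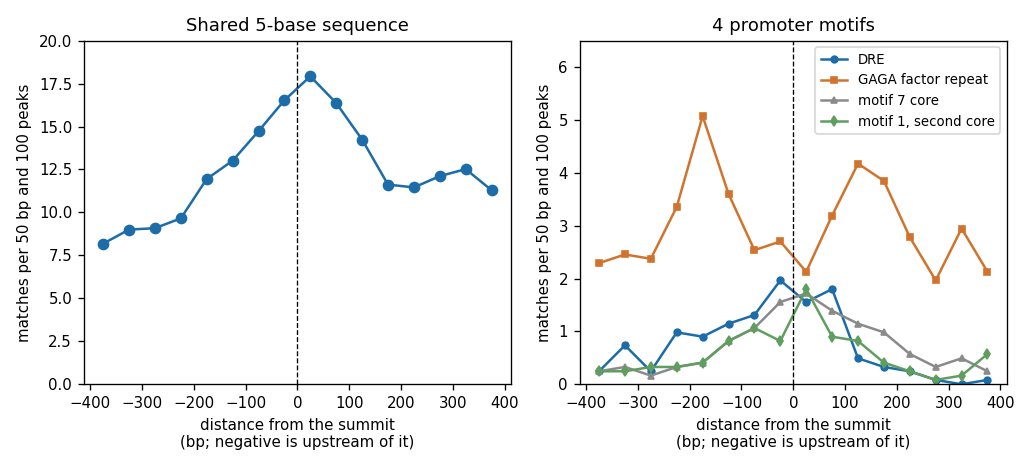
Matches per 50 bp and 100 single-gene peaks (vertical axes) by distance from the summit (horizontal axes, bp), for the 5-base sequence that the capitals mark in the first set of sequences (left) and for 4 promoter motifs (right). The left curve and those of DRE, motif 7 and motif 1 are highest around the summit, while that of the GAGA factor repeat dips there between maxima on both sides.

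Of the longer forms that contain CACTG, CACTGTGC and CACAGTGG were more frequent at single-gene than at divergent-pair peaks in the same counts. They were likewise picked after those counts had been seen. Other forms went the opposite way. CAGCACTG was at 3.44% of single-gene and 5.88% of divergent-pair peaks, and CAACACTG was also more frequent at divergent-pair peaks. CACTGTGC or CACAGTGG was present at 73 single-gene peaks (5.97%), against 2.08% of divergent-pair peaks. The share was 2.49% for weaker single-gene regions and 1.46% for the start-site windows of single genes. In replicates 1, 2 and 3 the shares were 5.50%, 6.03% and 5.62% for single-gene and 1.70%, 1.92% and 2.59% for divergent-pair regions. The sequences were picked from peaks derived from these same replicates, so the replicate shares are no independent check. Among the 100 strongest single-gene peaks 11 held one. They included larp, Rtnl1, RpL23A (a ribosomal protein of the large subunit), spi (an EGF receptor ligand) and fkh (a forkhead transcription factor). A strong match of each is shown in capitals.
CACTGTGC at Rtnl1 (chr2L:4997547-4997606, minus strand): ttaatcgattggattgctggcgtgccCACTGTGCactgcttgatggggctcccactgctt
CACAGTGG at larp (chr3R:28326660-28326719, minus strand): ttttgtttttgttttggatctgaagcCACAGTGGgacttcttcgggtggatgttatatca

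Genes for cytoplasmic ribosomal proteins held the largest group of single-gene peaks among 24 gene lists. Of the 37 such genes outside head-to-head pairs, 22 (59.5%, Wilson interval 43.5 to 73.7) carried a single-gene peak, where 11.0% of all genes outside pairs did. The replicates gave 62.2%, 51.4% and 62.2%. RpL23A had a pooled signal of 896 and stood at 13.7, 15.5 and 13.6 times the list median in replicates 1, 2 and 3. RpL30 had 553 and stood at 10.5, 8.42 and 7.54 times, and RpL11 had 497 and stood at 6.06, 10.2 and 6.44 times. RpL10 had a weaker region of signal 97.2 and RpL10Aa none. The lists were put together with earlier results on these peaks known, and are described by counts alone. Genes with more start sites were bound more often, and no list share, nor the 11.0%, was adjusted for the number of start sites.

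Translation factor genes had a peak in 7 of 26 cases (26.9%; replicates 34.6%, 19.2% and 15.4%). These were led by eIF6 (17.5, 22.5 and 21.2 times the list median), eEF1gamma (8.56, 10.3 and 8.52 times) and eIF2A (7.96, 6.45 and 5.37 times), while eEF1alpha2 and eIF2Bgamma had weaker regions only. Other lists of constantly used genes were near the background of 11.0%. Proteasome subunits had 3 of 22 (Rpn12, Rpn10 and Rpt1, with signals of 135, 123 and 123), vacuolar ATPase subunits 2 of 19 (Vha16-1 and VhaM9.7-c, with 186 and 150), and oxidative phosphorylation subunits 4 of 45, led by ATPsynC at 156. Mitochondrial ribosomal protein genes had 1 of 15 (mRpL13, with 138), aminoacyl-tRNA synthetases 1 of 10 (PheRS-m, with 146) and splicing genes 1 of 8 (tsu, with 193). Nuclear pore genes had 0 of 6, while in replicates 2 and 3 the share was 16.7% and 33.3%.

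Genes of transcription and chromatin were a mixed group beside the background of 11.0%. The 95% Wilson intervals were 14.2 to 55.6% for Polycomb and Trithorax group genes and 13.8 to 60.9% for insulator and architectural protein genes. For RNA polymerase and general factor genes (5.70 to 31.5%) and heterochromatin protein genes (5.14 to 47.7%) the interval included 11.0%. For histone and histone chaperone genes it was 30.1 to 95.4%. Polycomb and Trithorax group genes had 5 of 16 (31.3%), with ph-p far ahead, followed by tna (signal 209; 3.66, 3.06 and 3.01 times the list median) and kis (139), and without Sce or Set1. The list of insulator and architectural protein genes, which counted the transcription factor gene lola, had 4 of 12 (33.3%). The strongest peak, at lola, stood at 7.61, 7.71 and 5.54 times. Next came BEAF-32 at 2.86, 3.71 and 1.92 times and pita at 3.35, 2.84 and 2.39 times. Clamp and Nipped-B had weaker regions only. RNA polymerase and general factor genes had 4 of 28 (14.3%), among them Polr2F (signal 395), MED4 (384) and TfIIA-S (346). Heterochromatin protein genes had 2 of 11 (18.2%), sov (176), which encodes a zinc-finger protein of heterochromatin, and prod (172), which encodes a satellite-binding protein. D1 had a weaker region and HP1e none. Histone and histone chaperone genes had 3 of 4: dre4 (a FACT subunit), His3.3B and Caf1-180, with signals of 248, 193 and 154.

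Signalling genes had a peak in 8 of 26 cases (30.8%; replicates 34.6%, 34.6% and 38.5%), beside the background of 11.0%. The kinase gene sgg stood at 11.5, 14.1 and 9.46 times the list median, shn, a transcription factor of Dpp signalling, at 7.02, 10.5 and 6.86 times, and the insulin receptor gene InR at 4.48, 5.41 and 5.22 times. The annotated start sites numbered 11 for sgg, 5 for shn and 4 for InR. Dad and H had weaker regions only. Cytoskeleton genes had 5 of 14 (35.7%), among them shot at 3.70, 4.64 and 6.04 times, Moe at 3.17, 3.37 and 4.32 times and Act5C, and replication and cell cycle genes 4 of 15 (26.7%; replicates 6.67%, 40% and 26.7%), led by polo at 1.62, 3.99 and 2.79 times. For polo the replicates differed more than 2-fold, with replicate 1 lowest.

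Lists of genes regulated in the embryo lay closer to the background of 11.0%. Hox and segment polarity genes had 4 of 33 (12.1%), led by nkd (signal 239), eyg (215) and Dll (130.0), and Abd-B and Antp carried none. Early patterning genes, maternal or zygotic, had 4 of 33 (12.1%), led by Sxl (326), bcd (245) and rho (153), without Kr or bnk. Neuronal genes had 7 of 35 (20%), led by elav at 8.52, 8.68 and 9.63 times the list median, and muscle genes 2 of 25 (8%), sls at 5.26, 6.91 and 6.49 times and sns with a signal of 141. Heat shock and chaperone genes had 2 of 15, the small heat shock protein genes Hsp27 (signal 409; 6.52, 7.60 and 5.12 times) and Hsp26 (354; 4.75, 6.32 and 5.66 times).

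Genes for cuticle proteins and for chemical sensing were almost without peaks. Cuticle protein genes had 0 of 108 (95% Wilson interval up to 3.43%; 0 in each replicate), and 16 of them had a weaker region. Odorant, gustatory and ionotropic receptor and odorant-binding protein genes had 1 of 194 (0.515%), the same share in each replicate. The exception was Obp99b, with a signal of 213 and 4.07, 3.03 and 2.58 times the list median.

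**Figure D5:**
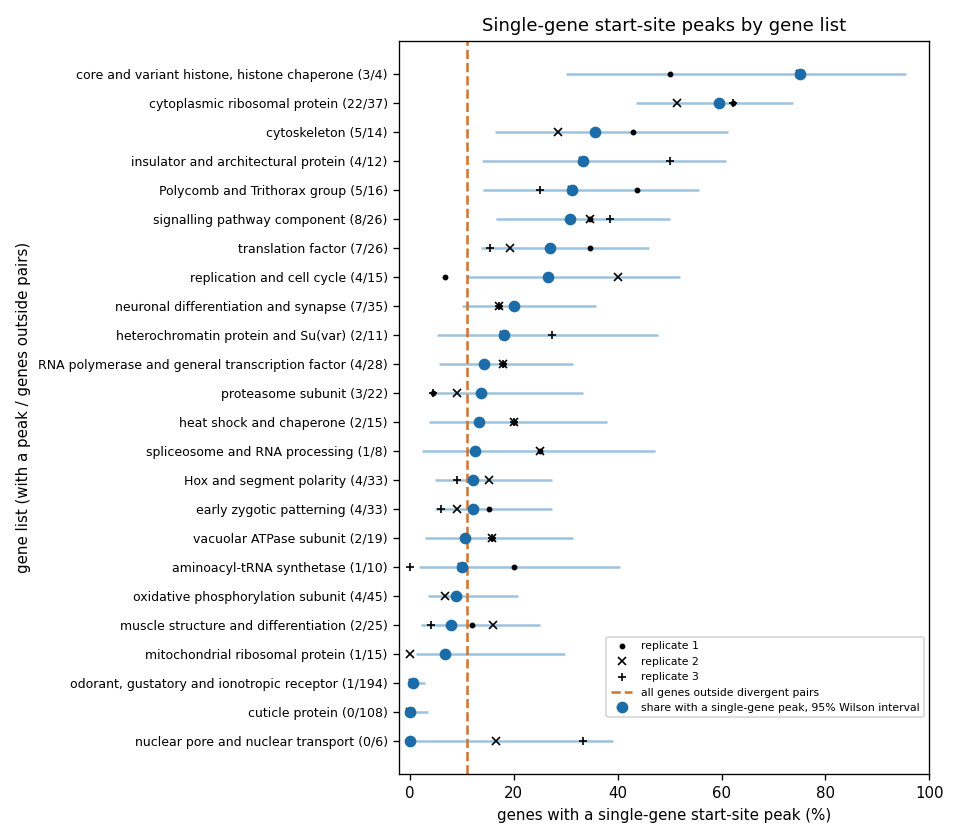
Share of genes outside head-to-head pairs that carry a single-gene start-site peak (horizontal axis, %) in each of 24 gene lists (vertical axis, with counts); circles with bars are the thresholded peaks with 95% Wilson intervals, small marks the replicates' own lists, and the dashed line is 11.0% of all such genes. Cytoplasmic ribosomal protein genes lie at 59.5%, and cuticle and receptor genes at or near 0.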

How the data were processed

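Su(var)3-7-GFP ChIP-seq of embryos was given as 3 biological replicates of 1 group, with the labels' numbers. According to the deposited inventory texts, the authors listed relaxed regions for each replicate and for the pooled replicates, each with a control, and derived the thresholded list from them by the irreproducible discovery rate. The sources used here do not give the aligner, peak caller, threshold or read filters. The signal of each region is the authors' deposited value on a scale that is not stated, so it was ranked within a list or divided by the list's median.

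Coordinates are on dm6, 1-based. Start sites came from Ensembl release 115 (BDGP6.54), sequence from the RefSeq genome. Weaker regions were pooled regions that overlapped no thresholded peak. Leaving out a replicate kept the peaks among the strongest 4055 regions of the other 2. Tests were two-sided: exact McNemar, Fisher's exact with log2 odds ratios and 95% Wald intervals, and exact sign-flip tests over replicates, with Benjamini-Hochberg adjustment over the 19 motifs and 0.05 as the threshold. Fisher's and McNemar's tests treat regions as independent and have no replicate term, so replicate values stand beside them. On simulated windows with a single planted motif, both motif tests called that motif and no other.

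Genes were named by a rule: the nearest gene of the 25 strongest single-gene peaks, Su(var)3-7, and of each of 24 gene lists up to 3 with the strongest such peak and 2 without one, by alphabet. Genes named for several peaks, for non-coding partners or for the 8-base sequences, and Obp99b as an exception, are outside that rule or were picked after their values were seen. The peaks, lists and motifs were chosen with earlier results of these data known. Alternatives were the stronger 2027 thresholded peaks, other windows and distances, other match rules, RefSeq start sites, leaving out each replicate and, added after seeing the data, start sites with and without a peak. Python 3.11.15, NumPy 2.4.6, pandas 2.3.3, SciPy 1.17.1 and matplotlib 3.10.9 were used. The dm3 lists were not used here.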

Additional observations from a re-analysis of the deposited data

How the results depend on the processing

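Of 77 alternative values of the main results, 60 kept their direction and side of the threshold, or stayed within 1.5 times for counts. The stronger 2027 thresholded peaks held 619 single-gene peaks at 511 genes, and a start-site window of 200 bp held 803. The difference in median signal, single-gene minus divergent-pair, changed sign among the stronger peaks (0.233 times the list median, exact p = 0.5), and the difference in recovery passed with that window (log2 odds ratio -0.42) and with a pair distance of 500 bp (-0.33). Among the stronger peaks 3 motifs exceeded the upstream windows. Start sites with a peak against those without, added after seeing the data, gave 9 motifs higher and 3 lower, where 7 were higher and 0 lower at summits than upstream. Between single-gene and divergent-pair peaks, windows of 50 bp left 1 motif higher and 2 lower, the 200 bp start-site window 3 lower, and the stronger peaks 1 higher. Against weaker regions, windows of 50 bp left 1 higher and 1 lower. Without each replicate in turn there were 842 to 877 single-gene peaks at 684 to 712 genes, the log2 odds ratio of lying upstream was 2.11 to 2.23, the signal difference -0.102 to -0.0562, that in recovery -0.22 to -0.07, and 1 to 1 motifs (GAGA) were higher than at divergent pairs. Of 150 values for single motifs, 112 stayed past the threshold, 38 no longer passed and 0 changed sign. The cause of these changes was not tested. No paired analysis was possible because the labels give a single group. Depth is unknown, so a gene without a thresholded peak is not shown to be unbound, and no precipitation without the tag was analysed here.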

Other observations

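Around the single-gene peaks the GAGA factor repeat had a profile of its own, which was noticed after the counts were seen and was not tested. GAGA factor, the product of Trl, is a zinc-finger protein that opens promoter chromatin. Its repeat reached 5.07 matches per 100 peaks in the 50 bp from -200 to -150 bp of the summit and 4.17 from 100 to 150 bp, with 2.70 and 2.13 in the 50 bp on each side of the summit. DRE was highest from -50 to 0 bp, at 1.96 per 100 peaks, and was at 0.900 from -200 to -150 bp. DRE was in 73 of the 1222 windows and the GAGA repeat in 92, and 1 window held both, where the product of their shares would give 5.50; this was not tested.

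Although these genes lack a protein-coding partner, some faced a non-coding one. A start site of a non-coding gene pointing away within 1000 bp upstream was found for 91 single-gene peaks (7.45%, Wilson interval 6.10 to 9.06), against 4.64% of the 8916 genes outside head-to-head pairs. The peaks were read at the start site nearest to their summit and the genes once each, and no test was made. The strongest examples, chosen after their values were seen, were eIF6 beside asRNA:CR45928 (pooled signal 1287), brwl beside lncRNA:CR44149 (861), Reg-5 beside asRNA:CR43257 (736), CG8036 beside the transfer RNA gene tRNA:Tyr-GTA-1-7 (698) and fkh beside lncRNA:CR43126 (601). At fkh the peak stood at 6.82, 11.5 and 9.54 times the list median in replicates 1, 2 and 3.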
